A study of Mus musculus with 18 samples.

Results

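The core circadian clock genes were measured in medial prefrontal cortex RNA of the mouse strain C57BL6/J. They are the activators Arntl, Clock and Npas2, the repressors Per1, Per2, Cry1, Cry2, Nr1d1 and Nr1d2, and the output gene Dbp. The 10 genes were taken by symbol from the 54547 gene identifiers of the count tables, whatever their values, and all 10 passed the filter on low counts that left 11051 genes for testing. The study holds 18 libraries, 9 from mice on a control diet and 9 from mice on chow with PLX5622, a blocker of CSF1R, the receptor whose signal keeps microglia alive. The labels give PLX5622 at 1200 mg/kg for 21 days, then 44 days of drinking 15% ethanol every other day, and dissection at postnatal day 100, 24 hours after ethanol was last given. That treatment text stands on all 18 libraries, controls included, so what a given animal received beyond its chow is not known from it, and the labels give no ethanol-free group and no clock time of collection. Libraries are named here by diet and by the number in their titles, taken as the animal's number, control 2 to control 11 and PLX5622 25 to PLX5622 35, and whether a library came from more than 1 animal is not stated.

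The clock is a feedback loop of transcription. ARNTL (also called BMAL1) pairs with CLOCK or NPAS2 and switches on genes that carry E-boxes, among them the Per, Cry and Nr1d genes and Dbp. PER and CRY proteins then block that pair, while NR1D1 and NR1D2 (REV-ERB alpha and beta) silence Arntl through sites that they share with the ROR activators. In tissues that cycle, Arntl and Npas2 transcripts therefore peak at about the opposite time of day to those of Dbp, Nr1d1 and the Per genes, and the balance of the arms is used as a mark of the time at which tissue was taken.

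The stretches below show the kind of element through which the arms of the loop act on each other, and they are given because they are the only matches among the clock genes to the motifs searched near a start site. Capitals mark the motif and the lower-case letters its flanks, all read 5′ to 3′ on the strand of the gene, from RefSeq on GRCm38.p6.
Arntl ROR element, chr7:113207530-113207558, plus strand: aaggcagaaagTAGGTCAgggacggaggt
Per1 E-box, chr11:69098772-69098799, plus strand: gcacccaagtcCACGTGcagggatgtgt
Cry1 E-box, chr10:85185098-85185125, minus strand: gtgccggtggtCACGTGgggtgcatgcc

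The motif begins 31 bases after a RefSeq start site in Arntl, 166 bases before one in Per1 and 60 bases before one in Cry1. The Per1 start lies inside the span that GENCODE M21 gives that gene, and the other Per1 window held no match. The search ran over both strands of windows from 250 bases before to 50 bases after each annotated start, and 9 of the 10 genes had a window, all except Per2. An E-box stood in 2 of the 9, Per1 and Cry1, and a ROR element in 1, Arntl, while the windows of Cry2, Nr1d1, Nr1d2 and Dbp held no E-box with these letters. The E-box CACGTG stood in 7.15% of all 32851 windows of that length, and the ROR element, searched as TAGGTCA or TGGGTCA, in 6.45%. The D-box TTATGTAA, the site of DBP, stood in 0.938% and the cAMP response element TGACGTCA in 1.79%, with no match in the windows of the clock genes. Counted by gene, as for the clock genes, the E-box stood in 8.09% of 27025 genes and the ROR element in 7.35%. The D-box stood in 1.11% of genes and the cAMP response element in 2.03%. A match describes letters in a window and does not show a bound site.

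The labelled tissue and diet were checked against marker genes. Markers of cortical excitatory neurons (such as Slc17a7 and Tbr1) were present at a summed 1216 to 1356 CPM (counts scaled to a common library size, with TMM factors) in controls and 1157 to 1339 with PLX5622. Of the hypothalamic peptide genes, which would mark the region of the central clock, Avp, Oxt and Prok2 had 3, 4 and 5 counts over all libraries, while Vip, also made by cortical interneurons, had 1368. All 13 tested microglial genes fell with PLX5622, with a summed level of 451 to 633 CPM in controls and 118 to 210 CPM in treated animals. Striatal, astrocyte, oligodendrocyte, precursor, endothelial, choroid plexus and red blood cell markers were read in the same way, and none of their tested genes was called. Among them Ttr, a choroid plexus gene, stood at 5.30 ± 3.26 CPM in controls and 15.5 ± 9.8 CPM with PLX5622 (SD, n = 9 each), with 6 of 9 PLX5622 libraries above every control. Its difference was 1.49 ± 0.44 (log2, SE; adjusted p = 0.283 in edgeR and 0.0733 in DESeq2). The choroid plexus list of 5 genes summed to 180 to 233 CPM in controls and 205 to 235 CPM with PLX5622, most of it Enpp2, and its part in the clock values was not tested. In bulk tissue, fewer cells of a type and less RNA per cell cannot be told apart. Libraries held 990136 to 1742680 counts, so that 1 CPM stands for about 1 to 2 counts. Counts of the clock genes were correspondingly low, from 4 to 18 per library for Cry1 up to 119 to 232 for Npas2. Reads came from a method biased to the 3′ end, so levels were compared between libraries and not between genes.

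No clock gene passed the test between the diets. At an adjusted p under 0.05 edgeR's quasi-likelihood test called 44 of 11051 genes, or 0.398%, and 0 of the 10 clock genes, and neither DESeq2 nor limma-voom called a clock gene. At an unadjusted p under 0.05, which 6.79% of all genes reached, 2 of 10 passed, Arntl in the upward and Dbp in the downward direction. Of the 10 log2 fold changes 5 were positive and 5 negative, with a median of 0.00, beside a median of 0.00 over all tested genes.

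Arntl (chromosome 7, 113207465 to 113314126, plus strand) encodes the activator without which the loop stops. Its level in control libraries ran from 57.1 through a median of 71.0 to 87.9 CPM, and with PLX5622 from 72.6 through 90.7 to 105 CPM. The groups overlapped, but 8 of 9 PLX5622 libraries lay above the control mean and 5 above every control. The means were 73.0 ± 10.5 and 89.0 ± 11.8 CPM (SD, n = 9 each), a 1.23-fold difference, or 0.30 ± 0.08 (log2, SE), with an adjusted p of 0.0674 in edgeR, 0.160 in DESeq2 and 0.0791 in limma-voom. Ranked by p, Arntl was the sixth of all genes in the upward direction. The value lay close to the threshold and crossed it with the setting: the adjusted p was 0.0145 with no count filter and 0.0335 with animal-number position as a covariate, and it was under 0.05 on leaving out control 7, control 11, PLX5622 27, 28 or 29, 1 at a time. In edgeR it was 0.191 with a minimum mean of 50 counts. Leaving out any other library kept it above 0.05, up to 0.236 without control 3. Without PLX5622 25 and 31, picked for the lowest Dbp after seeing the data, the difference was 0.23 ± 0.08 (log2). These libraries also had the highest Arntl, so a smaller difference follows from leaving them out and no test is read from it.

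The partners of ARNTL differed less between the diets than their spread. Clock (chromosome 5, 76209868 to 76304792, minus strand), which encodes the chief partner of ARNTL, ran from 96.1 through 120.4 to 135 CPM in controls and from 110.03 through 123 to 131 CPM with PLX5622. The groups overlapped almost wholly, and the difference was 0.05 ± 0.06 (log2). Npas2 (chromosome 1, 39193731 to 39363236, plus strand), a paralog of Clock that is prominent in the forebrain, ran from 92.3 through 114 to 146 CPM in controls and from 100.5 through 118 to 137 CPM with PLX5622. Control 8 and control 11 were its highest control libraries, and the difference was 0.07 ± 0.07 (log2).

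The Per genes encode the repressors that follow light, feeding and neuronal activity. Per1 (chromosome 11, 69095217 to 69109960, plus strand) ran from 30.5 through 42.7 to 60.5 CPM in controls and from 34.1 through 45.3 to 51.5 CPM with PLX5622. Control libraries reached both lower and higher than any PLX5622 library, and the difference was -0.02 ± 0.11 (log2). Per2 (chromosome 1, 91415982 to 91459324, minus strand) ran from 11.6 through 20.01 to 26.5 CPM in controls and from 12.7 through 23.05 to 34.8 CPM with PLX5622. The groups overlapped, PLX5622 34 and 35 stood above all controls, and the difference of 0.28 ± 0.15 (log2) had an adjusted p of 0.772 in edgeR. Per3, the remaining Per gene, is overlapped over its whole span by Camta1 on the same strand and was at 0 counts in every library, so its level could not be read.

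The Cry genes encode the partners of the PER proteins in the repressor complex. Cry2 (chromosome 2, 92403646 to 92434043, minus strand) ran from 92.3 through 120.2 to 128 CPM in controls and from 94.5 through 115 to 121 CPM with PLX5622, a difference of -0.05 ± 0.06 (log2). Each diet had 1 library well below the rest, control 8 and PLX5622 25. Cry1 (chromosome 10, 85131700 to 85185064, minus strand) ran from 4.03 through 8.72 to 11.5 CPM in controls and from 2.78 through 10.05 to 11.8 CPM with PLX5622. At that depth counting alone gives a spread of 29.4% and 29.0% of the mean, against a measured 25.0% in controls and 37.9% with PLX5622, and the difference of -0.01 ± 0.21 (log2) has the widest error of the 10.

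The Nr1d genes encode the receptors that repress Arntl. Nr1d1 (chromosome 11, 98767932 to 98775333, minus strand) ran from 55.04 through 67.9 to 80.6 CPM in controls and from 47.9 through 67.2 to 75.1 CPM with PLX5622, a difference of -0.07 ± 0.08 (log2). Nr1d2 (chromosome 14, 18204054 to 18239127, minus strand) ran from 72.6 through 86.7 to 93.6 CPM in controls and from 67.4 through 87.2 to 93.04 CPM with PLX5622, a difference of 0.02 ± 0.07 (log2). The groups overlapped for both genes. PLX5622 25 lay below every other library, and 2 controls of Nr1d1 and 1 of Nr1d2 lay above every PLX5622 library.

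Dbp (chromosome 7, 45705088 to 45710203, plus strand) encodes a factor that acts at D-boxes and is among the transcripts that swing most over the day in cycling tissues. It ran from 45.6 through 58.1 to 66.4 CPM in controls and from 30.7 through 51.1 to 63.3 CPM with PLX5622. PLX5622 25, 31 and 32 lay below every control, at 30.7, 30.7 and 43.8 CPM, and the other 6 lay within the control range. The means were 57.3 ± 7.3 and 47.9 ± 11.1 CPM (SD, n = 9 each), a difference of -0.26 ± 0.10 (log2, SE) with an adjusted p of 0.538 in edgeR. The spread of Dbp was 12.7% of the mean in controls, where counting alone gives 11.5%, and 23.2% with PLX5622, where counting gives 12.3%. Without PLX5622 25 and 31 the difference was -0.11 ± 0.09 (log2). These libraries were picked for the lowest Dbp after seeing the data. A smaller difference follows from that choice, so the value is a description and no test is read from it.

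**Figure D1:**
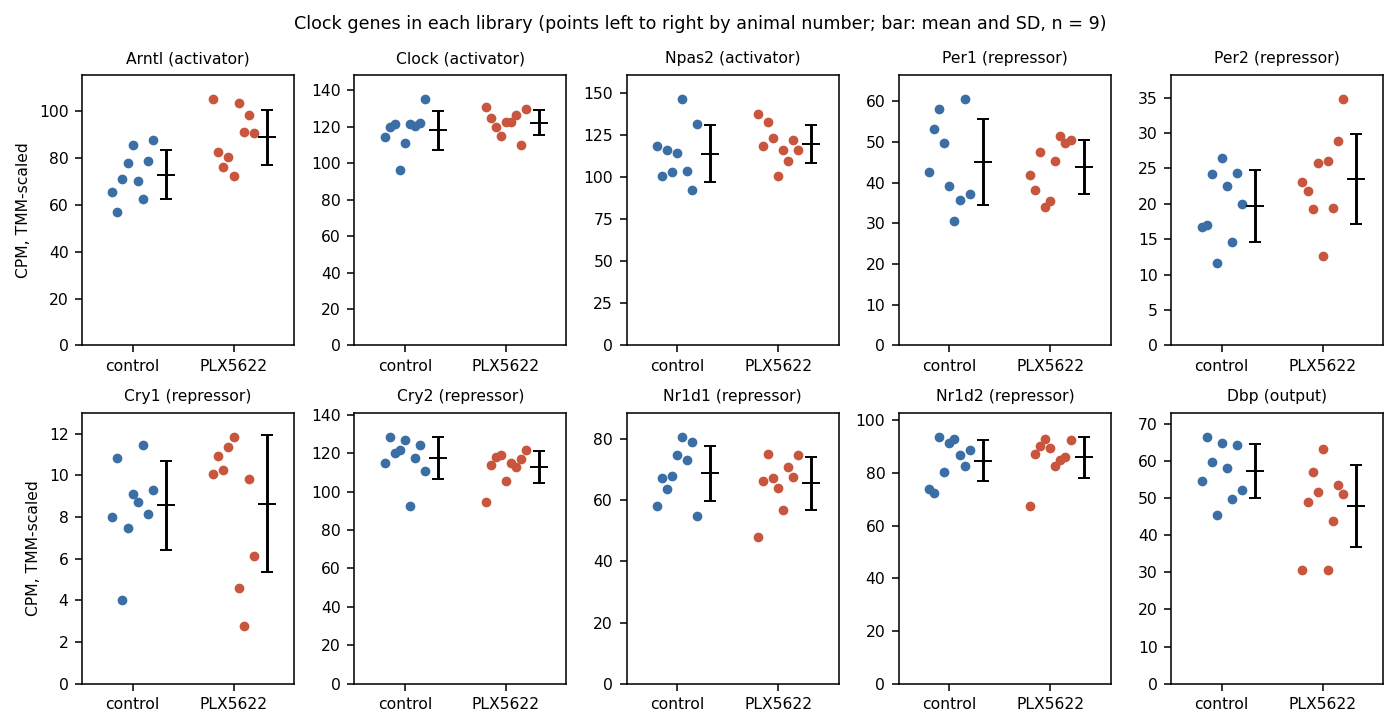
Level of each clock gene in every library, in CPM with TMM scaling (vertical axes start at 0 and differ between panels), by diet, with points ordered left to right by animal number and bars for the mean and SD of 9 libraries. The PLX5622 points of Arntl reach from 72.6 to 105 CPM against 57.1 to 87.9 in controls, and 3 PLX5622 points of Dbp lie below all controls.

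Some clock genes lie on the other strand from a neighbour. Nr1d1 shares 263 exon bases with Thra, Dbp shares 539 with Sphk2, and D930015M05Rik covers 77.03% of the span of Cry2. Clock is overlapped on its own strand over 4.88% of its span, by Ube2n-ps1 and Gm43658. The counts behaved as strand-specific: among protein-coding genes that lie inside another gene, 537 of 818 had counts where the host lay on the other strand and 7 of 456 where it lay on the same strand. Thra, at 548 ± 31 CPM in controls, differed by -0.02 ± 0.04 (log2) between the diets, Sphk2 by 0.07 ± 0.11 (log2), and D930015M05Rik had 3 counts in all.

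The arms were set against each other in each library as the mean log2 CPM of Arntl, Clock and Npas2 minus that of the 7 repressor and output genes. This arm contrast is a description and carries no test. It ran from 0.91 through 1.17 to 1.45 in controls and from 1.17 through 1.20 to 1.69 with PLX5622. All 9 PLX5622 libraries lay above the control mean of 1.15 ± 0.17, and 3 of them, PLX5622 25, 31 and 32, lay above every control, while the other 6 lay between 1.17 and 1.25. PLX5622 32, at 1.47 beside 1.45 in the highest control, and PLX5622 31 had the lowest Cry1 of their diet, 4 and 6 counts, and Cry1 enters the repressor mean with the same weight as the other genes. The PLX5622 mean was 1.32 ± 0.20 (SD, n = 9 each), and the difference of 0.17 was about the size of the pooled SD of 0.18. The activator mean was higher with PLX5622 by 0.14, and the repressor and output mean differed by -0.03. By gene in edgeR, Arntl differed by 0.30 and Clock and Npas2 by 0.05 and 0.07 (log2). In the other arm Dbp differed by -0.26, Per2 by 0.28 and the rest by -0.07 to 0.02. Without PLX5622 25 and 31 the difference of the arm contrast was 0.08. They were picked for the lowest Dbp and had the highest arm contrast, so a smaller difference follows from leaving them out.

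**Figure D2:**
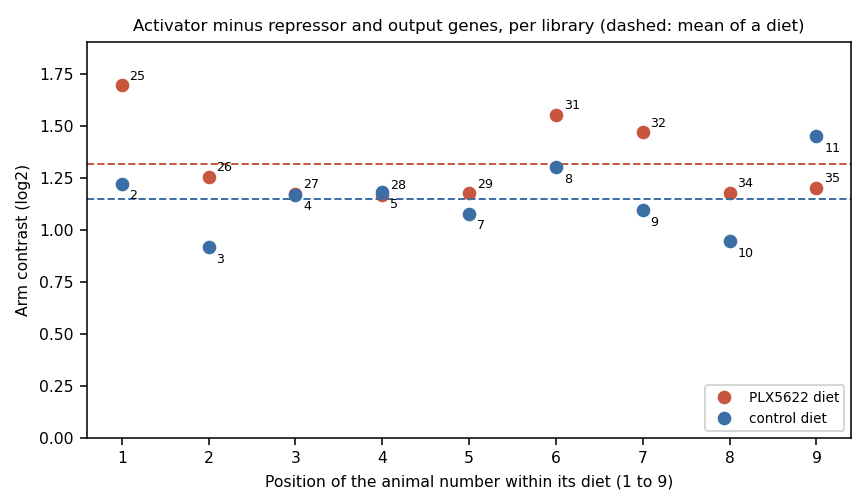
Arm contrast (vertical axis, log2) of each library against the position of its animal number within its diet (horizontal axis, 1 to 9), labelled with the animal number, with dashed lines at the mean of each diet. PLX5622 25, 31 and 32 lie above all control points, and the other PLX5622 libraries lie between 1.17 and 1.25.

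Arntl and Dbp, the genes that reached an unadjusted p under 0.05 between the diets, were then set side by side. Since they were taken for their opposite differences between the diets, a larger gap between them with PLX5622 follows from that choice and is a description only. The log2 level of Arntl minus that of Dbp averaged 0.34 ± 0.29 in the control diet and 0.90 ± 0.53 in the PLX5622 diet (SD, n = 9 each), with the highest values in PLX5622 25 at 1.73 and PLX5622 31 at 1.71. These were the libraries with the highest Arntl, at 105 and 104 CPM, and the lowest Dbp. Within the PLX5622 diet the log2 levels of Arntl and Dbp had Pearson's r of -0.83 and Spearman's rho of -0.80 over 9 libraries. The exact permutation p was 0.0040 for r and 0.0138 for rho, and the adjusted values over 90 pairs were 0.140 and 0.388. Without the 2 libraries farthest from the median of Arntl, PLX5622 29 and 27 at 72.6 and 76.3 CPM, r was -0.73. PLX5622 25 and 31 remained in that value, and r without them was not computed. With both genes adjusted for position r was -0.91. Its permutation p, taken on residuals from a fitted line and so approximate, was 0.0717 after adjustment over the pairs. In controls r was -0.10 and rho -0.07 (exact permutation p = 0.800 and 0.880). Whether the relation differs between the diets was not tested.

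**Figure D3:**
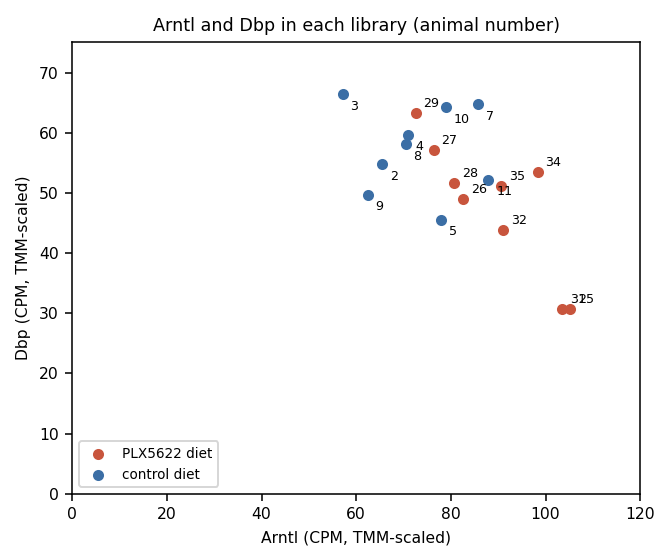
Dbp against Arntl in each library, both in CPM with TMM scaling, labelled with the animal number, in red for the PLX5622 diet and in blue for the control diet. PLX5622 25 and 31 lie apart at about 30.7 CPM of Dbp, and the control points spread over 57.1 to 87.9 CPM of Arntl and 45.6 to 66.4 CPM of Dbp.

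All 45 pairs of clock genes were compared within each diet, and none of the 90 passed after adjustment, by Pearson's r, by Spearman's rho or after adjustment for position. At an unadjusted exact p under 0.05 there were 12 of the 90 pairs by Pearson's r. Within the repressor and output arm there were 6 with PLX5622 and 2 in controls, and between the arms 2 in each diet. Pairs share the same 10 genes and are not independent, and no rate over pairs of other genes was computed. Of the 21 pairs that join an activator to a repressor or output gene, r was negative in 15 with PLX5622 and in 13 in controls. Of the 21 pairs within the repressor and output arm, it was negative in 7 with PLX5622 and in 11 in controls. The lowest r in controls was that of Npas2 with Cry2, -0.83, with rho also at -0.83 (exact permutation p = 0.0040 and 0.0083, adjusted 0.140 and 0.372), and -0.68 without the 2 libraries farthest from the median of Npas2. With PLX5622 the same pair had r of -0.15. The highest r was that of Nr1d1 with Nr1d2 with PLX5622, 0.88 (exact permutation p = 0.0062, adjusted 0.140). Its rho was 0.58 (exact permutation p = 0.108). Without the 2 libraries farthest from the median of Nr1d1 r was 0.26, so its size rests on the libraries that set the range. With both genes adjusted for position r was 0.84 (permutation p of the residuals, approximate, 0.0717 after adjustment over the pairs).

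The animal numbers were used as the only order that the labels give, and whether they follow the order of collection is not stated. A running number in the names of the deposited tables follows the same order within each diet and alternates between the diets, and its meaning is not given. Each animal number was replaced by its position, 1 to 9, within its diet, and a slope was fitted with diet as a term. At an adjusted p under 0.05 edgeR's quasi-likelihood test called 34 genes, or 0.308%, and 0 of the 10 clock genes. At an unadjusted p under 0.05, which 9.27% of all genes reached, 1 clock gene passed, Per2, at 0.05 ± 0.03 (log2 per position, SE, adjusted p = 0.538), and DESeq2 and limma-voom again called none. Arntl had a slope of 0.02 ± 0.01, Nr1d1 of 0.03 ± 0.02, Nr1d2 of 0.02 ± 0.01 and Dbp of 0.01 ± 0.02 (log2 per position). Slopes of 8 of the 10 were positive and those of Npas2 and Cry1 negative, beside 5551 of 11042 positive over all tested genes counted by symbol. The slopes of Clock, Npas2, Per1, Cry1, Cry2 and Dbp were smaller than their SE. The signs therefore do not show whether activators and repressors parted.

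Slopes on position were also compared between the diets. At an adjusted p under 0.05 this called 0 genes, or 0.0%, and no clock gene, and 4.55% of all genes reached an unadjusted p under 0.05 in edgeR. Per1 did so (unadjusted p = 0.0493, adjusted 0.986), with -0.03 ± 0.03 per position in controls and 0.04 ± 0.03 with PLX5622. Since the numbers of the diets do not overlap, diet and anything tied to the blocks of numbers cannot be told apart.

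**Figure D4:**
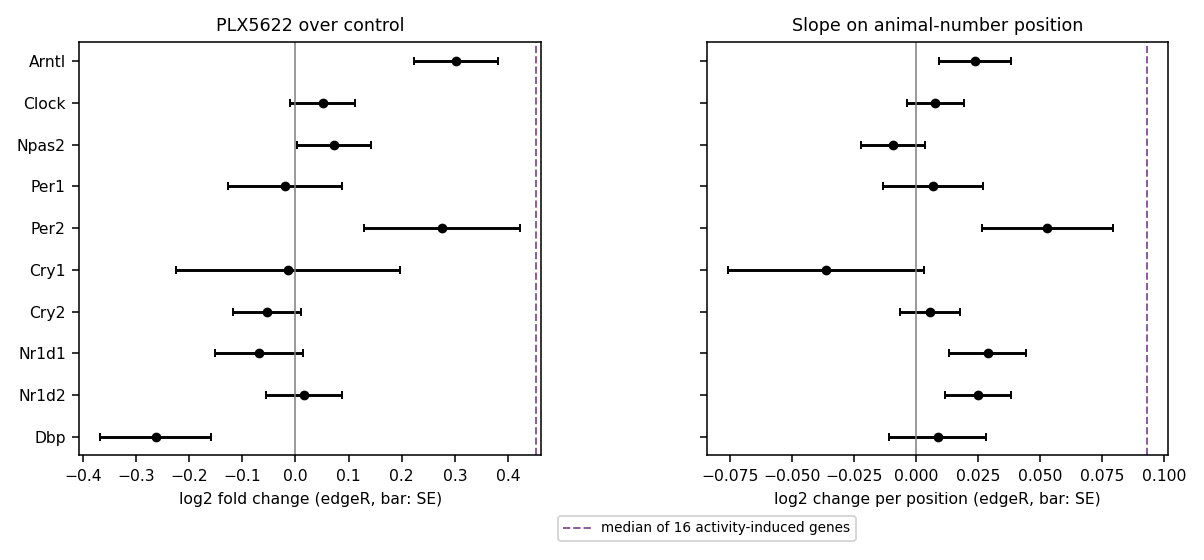
Estimates of edgeR for each clock gene, with bars for the SE. The left panel gives the log2 fold change of PLX5622 over control, the right panel the log2 change per position of the animal number, and the dashed lines mark the medians of 16 activity-induced genes, 0.45 and 0.09.

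Further genes of the clock were read from a list of 24, of which 20 could be tested. Between the diets 10 were higher and 10 lower, with a median of -0.01 (log2), and none passed after adjustment. Noct, a rhythmic phosphatase also called nocturnin, came nearest at 0.26 ± 0.08 (log2, adjusted p = 0.228), from 57.5 ± 6.1 to 69.2 ± 7.9 CPM (SD, n = 9 each). All 9 PLX5622 libraries of Noct lay above its control mean and 4 above every control. Usp2, a rhythmic deubiquitinase, differed by -0.22 ± 0.08 (log2, adjusted p = 0.308), with 6 of 9 PLX5622 libraries below every control. Cirbp, a cold-inducible RNA-binding protein, differed by -0.20 ± 0.09 and Nfil3, a repressor that competes with DBP at D-boxes, by 0.41 ± 0.19 (log2). Tef and Hlf, the paralogs of Dbp, differed by -0.03 ± 0.05 and 0.04 ± 0.05 (log2), and Ciart, a repressor of the loop, by -0.30 ± 0.21 at under 10 CPM. The kinases Csnk1d and Csnk1e, which mark PER proteins for decay, differed by 0.11 ± 0.06 and 0.07 ± 0.06 (log2). On position, Bhlhe40, an E-box repressor, had a slope of 0.05 ± 0.02, Usp2 of -0.04 ± 0.01 and Bhlhe41, the paralog of Bhlhe40, of 0.03 ± 0.02 (log2 per position), and none of the 20 passed after adjustment.

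Genes that neuronal activity induces were read beside the clock because the Per genes share that response in part. Of 18, 16 could be tested, and all 16 were positive both between the diets, with a median of 0.45 (log2), and on position, with a median of 0.09 per position. Over all tested genes counted by symbol, 5526 of 11042 were positive between the diets and 5551 on position. Calls at an adjusted p under 0.05 in edgeR took in 0.398% of all genes between the diets and 0.308% on position. Junb and Fosb, subunits of the AP-1 factor, rose with PLX5622 by 0.59 ± 0.13 and 0.86 ± 0.20 (log2, adjusted p = 0.0149 and 0.0162 in edgeR), and the next in order of p were Dusp1 at 0.65 ± 0.17 and Homer1 at 0.26 ± 0.07. The calls depended on the tool: DESeq2 also called Dusp1, Arc and Btg2 (adjusted p = 0.0147, 0.0262 and 0.0446), and limma-voom called Junb and Fosb only. On position 9 rose, led by Arc at 0.18 ± 0.02, Nr4a1 at 0.12 ± 0.02 and Fos at 0.16 ± 0.02 (log2 per position), with Btg2, Egr4, Nr4a3, Dusp1, Junb and Homer1 between 0.04 and 0.13. Per1, at -0.02 between the diets and 0.01 on position, and Per2, at 0.28 and 0.05, lay below both medians. Of 12 genes that glucocorticoids induce, 9 could be tested, and none passed in either fit. All 9 were positive between the diets with a median of 0.10 (log2): Zbtb16 at 0.17 ± 0.08 and Tsc22d3 at 0.22 ± 0.14 had the smallest p, followed by Fkbp5 at 0.18 ± 0.13. On position 8 of 9 were positive, with Zbtb16 and Cdkn1a at 0.05 ± 0.01 and 0.07 ± 0.02 (log2 per position).

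**Figure D5:**
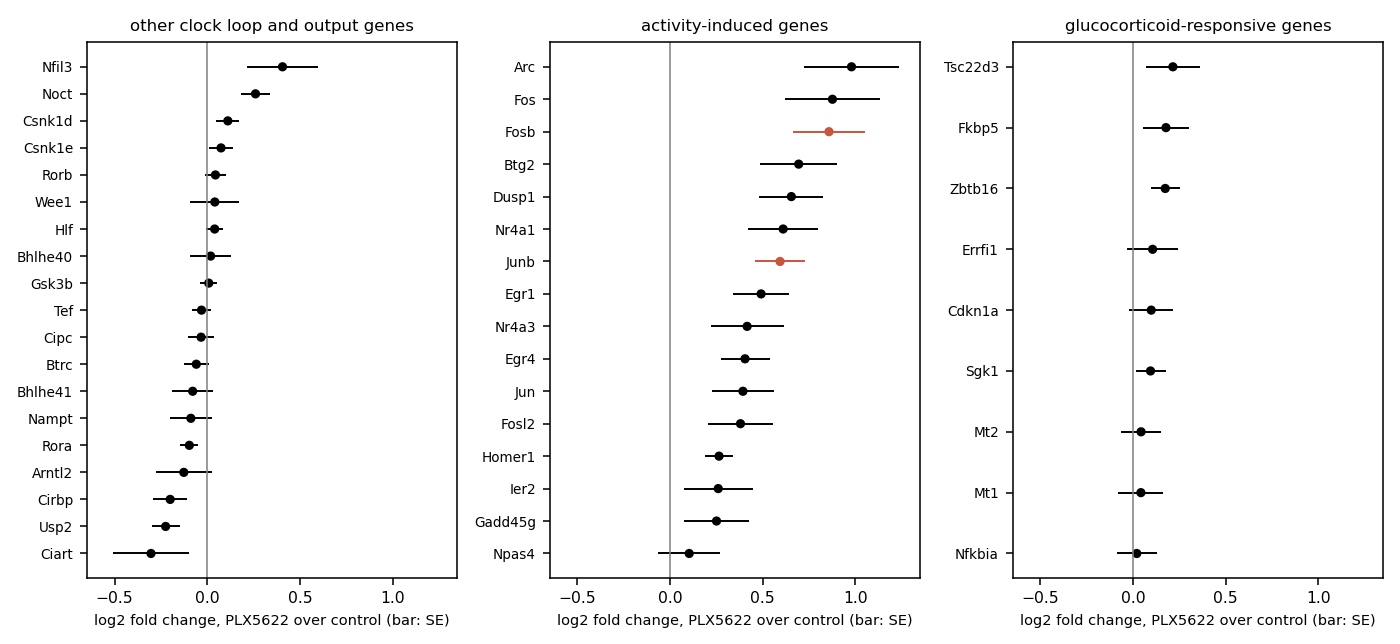
Log2 fold change of PLX5622 over control (horizontal axis, bars for the SE) for tested genes of 3 lists, other clock genes (19 of the 20 drawn), activity-induced genes and glucocorticoid-responsive genes, with genes called at an adjusted p under 0.05 in red. The other clock genes lie on either side of 0 with none called, and all 16 activity-induced genes lie above 0 with Junb and Fosb called.

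A further measure of the libraries was set beside the arm contrast. The share of counts from genes that span over 100 kb ran from 35.5% to 39.6% in controls and from 35.1% to 37.7% with PLX5622, and the means of 36.8% ± 1.4 and 36.6% ± 0.9 (SD, n = 9 each) differed by less than their SDs (two-sided exact permutation p = 0.643). Within a diet its Pearson's r with the arm contrast was 0.55 in controls and 0.71 with PLX5622, and Spearman's rho 0.23 and 0.70, given as a description with no test. With Arntl and with Dbp, r of the share was 0.65 and -0.76 with PLX5622, and 0.16 and 0.22 in controls, also without a test. The activators Arntl, Clock and Npas2 span 106662, 94925 and 169506 bases, and of the other arm Cry1, Per2, Nr1d2 and Cry2 span 53365, 43343, 35074 and 30398 bases, and Per1, Nr1d1 and Dbp 14744, 7402 and 5116. With diet in the fit, 1 of the 10 clock genes was called on this share, where 3.91% of all genes were: Npas2 at 0.12 ± 0.03 (log2 per SD of the share, adjusted p = 0.0109 in edgeR). Npas2 and Arntl span over 100 kb and are themselves part of the share, and the rate among genes of that length was not computed. Arntl had 0.07 ± 0.04, Clock 0.04 ± 0.03 and Per2 0.07 ± 0.07. Per1 had -0.09 ± 0.05, Cry2 -0.08 ± 0.03, Dbp -0.06 ± 0.05 and Nr1d1 -0.05 ± 0.04. Cry1 and Nr1d2 had -0.012 ± 0.108 and -0.002 ± 0.036. With the share as a covariate, an alternative chosen after seeing the data, the difference of Arntl between the diets was 0.32 ± 0.08 (log2, adjusted p = 0.0158) and that of Dbp -0.28 ± 0.10 (adjusted p = 0.404). The part of this share in the arm contrast, and in the relation of Arntl with Dbp, was not tested.

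The genes whose log2 level ran most like the arm contrast were ranked over the 18 libraries after centring each diet on its mean, among the 10969 genes that averaged at least 10 counts. Highest was Grm5, a metabotropic glutamate receptor, with r of 0.84, followed by Khdrbs3, Rpgrip1l, Tmem63c, Arhgap20 and R3hdm1 with r from 0.80 down to 0.76. Lowest was Cyb5r1 with r of -0.78, followed by Apod, Sparc, Ier3, Myoc and Ifrd1 with r from -0.77 to -0.75. Of these 12 genes only Sparc, at -0.63 (log2, adjusted p = 0.0262 in edgeR), was called between the diets.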

How the data were processed

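The authors deposited whole-number read counts per gene, 1 table per library, from total RNA in 3′-biased, single-end Illumina libraries, per the labels. The submitters' processing notes list HTSeq 0.11.0 and Bowtie2 2.3.4.3, beside FastQC 0.11.8 and DESeq2 1.10.1, and the build GRCm38.p6 (mm10). The sources used here do not give the part each tool played or the strand setting. Groups come from the titles and the chow label. Identifiers were matched to GENCODE M21 without version; the 927 unmatched ones hold 0.0467% of counts.

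Genes were tested with edgeR 4.0.16 in R 4.3.3 (filterByExpr with a minimum count of 10 and total of 15, TMM scaling, robust quasi-likelihood, Benjamini-Hochberg over all tested genes, calls at an adjusted p under 0.05). Fits were of diet, of position with diet, and of their interaction. Log2 CPM carry a prior count of 2. Pairs were tested within a diet over all 362880 orders of 9 libraries, two-sided. The labels do not say that animals were housed or collected separately, so p-values measure the spread between these libraries. Alternatives were DESeq2 1.42.0, limma-voom 3.58.1, other scalings and filters, thinning to the smallest library, position as a covariate and leaving out each library. Fits without PLX5622 25 and 31, the PLX5622 libraries with the lowest Dbp, and with the share of long genes as a covariate, were chosen after seeing the data. The scripts were tested on simulated counts.

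The clock genes and all lists were chosen with earlier results of these data known. The text names all 10 clock genes, the called genes and up to 4 with the smallest p of each related list in each fit, and the 6 genes most and least like the arm contrast; Tef, Hlf, Ciart, Csnk1d and Csnk1e were named beyond that rule after their values were seen. A gene that this rule would name is left out of the text and figures.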

Additional observations from a re-analysis of the deposited data

Results flagged for a closer look

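Within each diet, libraries were marked where the gap to the nearest other library exceeded, as a share of the range, the critical value of Dixon's test for 9 values, for the 10 clock genes and the arm contrast. This was done in 22 groups, of which chance marks about 1 in 20. Cry2 in control 8 was at 92.27 CPM, below the other controls at 110.8 to 128.2 CPM. The same library had the highest Npas2 and Nr1d1 and the lowest Per1 of the controls, and the highest share of counts from genes over 100 kb. Nr1d2 in PLX5622 25 was at 67.37 CPM, below the other PLX5622 libraries at 82.84 to 93.04 CPM. That library also had the highest Arntl, Clock and Npas2 and the lowest Cry2 and Nr1d1 of its diet, and the largest total of counts of all 18. No clock gene had a slope on position that differed between the diets after adjustment.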

How the results depend on the processing

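The number of clock genes called between the diets was 0, and 1, always Arntl, with no count filter, after thinning, with position as a covariate and with the share of genes over 100 kb as a covariate. Leaving out each library gave 0 to 1. No clock gene was called on position or its interaction with diet under any alternative run, and no pair passed. Arntl stayed positive in all 28 alternatives, from 0.23 to 0.34 (log2, adjusted p from 0.0145 to 0.403), and Dbp negative in all 28, from -0.32 to -0.11 (adjusted p from 0.299 to 0.922). The arm contrast difference ran from 0.08 to 0.21.

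Signs of values near 0 turned. Between the diets (log2), Per1 was 0.0059 in limma-voom and 0.0095 after thinning, and ran from -0.077 to 0.045 on leaving out each library. Cry1 ran from -0.10 to 0.11 on leaving out each library and was 0.0347 without PLX5622 25 and 31, where Nr1d1 was 0.0217. Nr1d2 was -0.0050 after thinning and ran from -0.0106 to 0.0601 on leaving out each library. On position (log2 per position), thinning gave 0.0128 for Npas2 and -0.0013 for Cry2. Leaving out each library gave slopes from -0.0071 to 0.0183 for Per1, -0.0050 to 0.0103 for Cry2 and -0.0140 to 0.0170 for Dbp. The causes were not tested. The diets share no animal numbers, so no paired fit was made; the running numbers of the tables were not used as pairs, since the labels do not say what they mark. Thinning left Cry1, and a minimum mean of 50 counts left Cry1 and Per2, without a value. Depth limits Cry1, at 4 to 18 counts, most.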
